A study of Canis lupus familiaris with 10 samples.

Results

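The collagen fibril genes described here are 7 of the 19856 genes in the count tables: the small leucine-rich proteoglycans LUM (lumican, ENSCAFG00000006138), DCN (decorin, ENSCAFG00000006142) and FMOD (fibromodulin, ENSCAFG00000009459), the procollagen processing enhancer PCOLCE (ENSCAFG00000014322), the collagen receptor DDR2 (ENSCAFG00000013180) and the matrix glycoproteins SPARC (ENSCAFG00000017855) and FN1 (fibronectin, ENSCAFG00000014345). They were selected from the DEG list of the study, that is, on the difference between the same Pre-ACTH and Post-ACTH samples, so that their lower values in Post-ACTH are given below as a description, with no p-value. Counts of the 7 genes past a threshold in this contrast stand only beside the share of all genes that passed it. All 7 had at least 10 reads in at least 1 sample and were therefore among the 13577 genes tested. FMOD reached 10 reads only in Pre-ACTH samples, the group where it is high.

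Visceral adipose tissue (VAT) came from 5 adult Beagle dogs, 3 males and 2 females, numbered 1 to 5 by animal ID. Each dog gave a Pre-ACTH sample by laparotomy before treatment and a Post-ACTH sample after 25 weeks of tetracosactide, a synthetic ACTH analog that stimulates the dog's own cortisol secretion, from subcutaneous osmotic pumps renewed every 4 weeks. The dose began between 1.3 and 1.95 μg/kg/day and ended between 6 and 10 μg/kg/day, and as no dog was left untreated, the effects of treatment, of 25 weeks of time and of the earlier surgery cannot be told apart. RNA-seq gave 10 libraries of 8728330 to 14867529 counted reads, the smallest from dog 3 in Pre-ACTH. Normalized counts are reads per library after TMM scaling, brought to the average size of the 10 libraries. No transcript lengths were used, so levels are compared between samples of a gene and not between genes. In whole tissue, fewer cells of a type and less RNA per cell cannot be told apart.

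Collagen fibrils form outside the cell, after the ends of procollagen have been cut off by proteases that PCOLCE assists. Lumican, decorin and fibromodulin bind along the growing fibril and set its diameter and spacing, DDR2 is a receptor tyrosine kinase that is activated by fibrillar collagen, SPARC binds collagen and takes part in its deposition, and fibronectin forms the network on which collagen is laid down. In adipose tissue these proteins are made mainly by fibroblasts and adipocyte progenitors, and SPARC also by adipocytes and vascular cells.

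Each of the 7 genes was lower in Post-ACTH in all 5 dogs, a pattern shown by 13.5% of all tested genes. In 6 of the 7 genes every Post-ACTH sample lay below every Pre-ACTH sample, which held for 4.74% of all tested genes, and DDR2 was the exception. LUM, FMOD and PCOLCE, 3 of the 7, passed FDR under 0.01 in the paired quasi-likelihood test of edgeR, which called 1.22% of tested genes as lower. As the genes were chosen on this contrast, nothing is read from these counts. They also depended on the samples and the test: without dog 2 the count was 0 of 7 (7 at an unadjusted p under 0.05, 3 at FDR under 0.05), without dog 3 it was 1, without dogs 1, 4 or 5 it was 2 each, and DESeq2 called all 7. The DESeq2 count is given by the selection, since the study made its DEG list with DESeq2, paired by animal, at FDR under 0.01. The median log2 fold change of the 7 genes was -1.49, against -0.0021 for all tested genes. For the 1079 tested genes named on the DEG list, from which the 7 were taken, the median was -0.56. The median of the 7 genes lay between -1.58 and -1.39 when single dogs were left out. It was the value of LUM each time, so this range describes 1 gene. Over the same settings FN1 ran from -2.33 to -1.76 and DDR2 from -0.88 to -0.57. Together the 7 genes took 0.191% ± 0.0599 of counted reads in Pre-ACTH and 0.0976% ± 0.0139 in Post-ACTH (SD, n = 5 each), from 0.140% to 0.289% in the former and from 0.0783% to 0.116% in the latter.

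**Figure D1:**
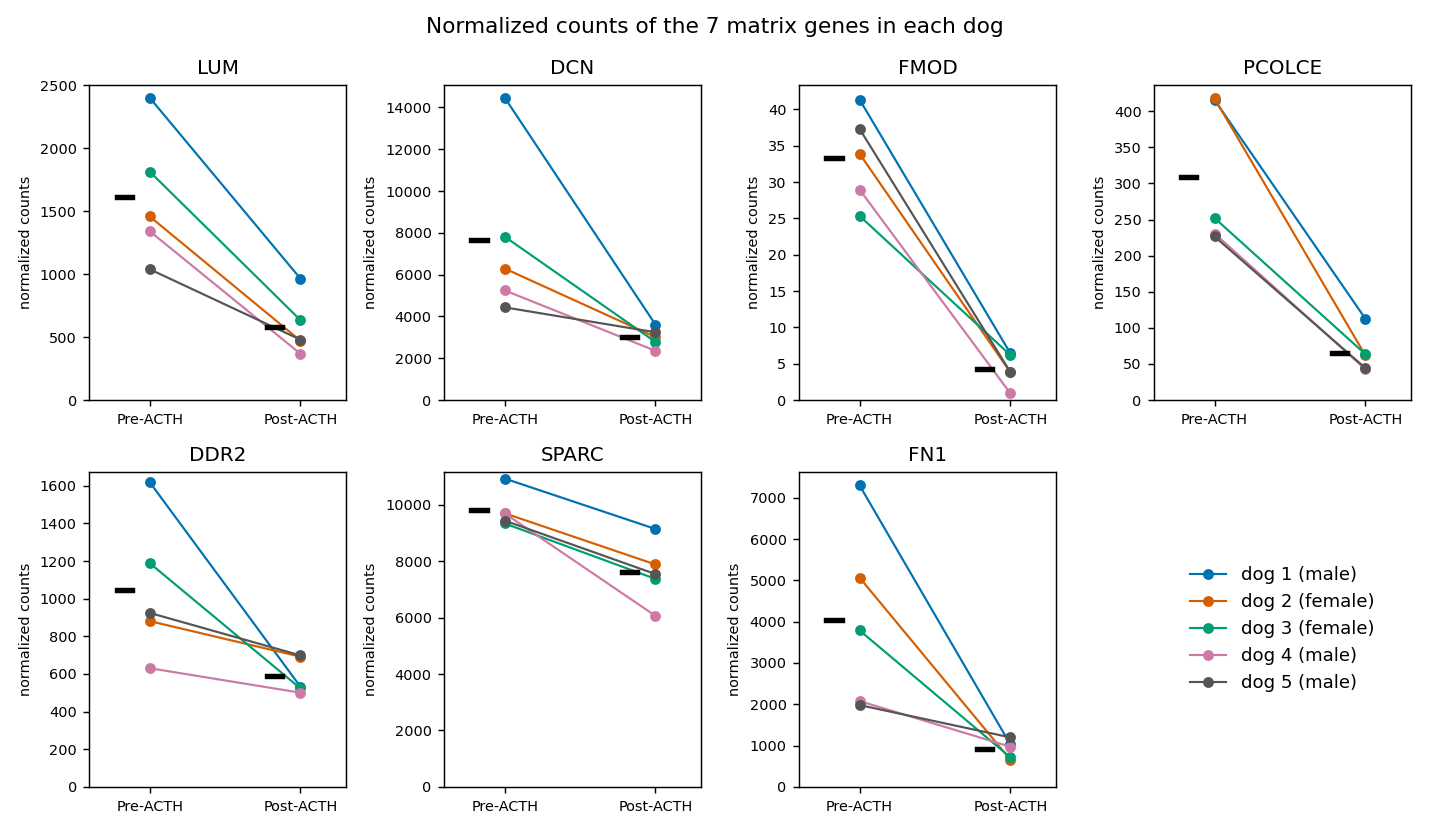
Normalized counts (vertical axes, linear and starting at 0) of the 7 genes in the Pre-ACTH and the Post-ACTH sample of each dog, joined by a line per dog, with black bars for the mean of 5 dogs. Every line descends, the Post-ACTH and Pre-ACTH points overlap in DDR2 alone, and dog 1 has the highest Pre-ACTH value in 6 of the 7 genes.

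Among the small leucine-rich proteoglycans, LUM had 2402.5, 1459, 1815, 1342 and 1039.8 normalized counts in the Pre-ACTH samples of dogs 1 to 5 and 965, 472, 635, 368 and 480.2 in their Post-ACTH samples. The groups did not overlap, but the highest Post-ACTH value, of dog 1, reached 92.8% of the lowest Pre-ACTH value, of dog 5. The means were 1612 ± 522 and 584 ± 233 (SD, n = 5), the log2 fold change was -1.49 (SE 0.11), and the within-dog log2 ratios lay between -1.86 and -1.11, the closest agreement between dogs after SPARC. DCN had 14469, 6294, 7820.2, 5249.6 and 4438 normalized counts in Pre-ACTH and 3616, 3013, 2784, 2359 and 3245 in Post-ACTH. Its Pre-ACTH value in dog 1 was the highest of all, while the Post-ACTH values of the 5 dogs lay close together. The log2 fold change of DCN was -1.23 (SE 0.20), and the within-dog log2 ratios of dogs 2 to 5 lay between -1.49 and -0.45, with dog 1 below them.

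FMOD was much the lowest in reads. In Pre-ACTH it had 42, 35, 18, 25 and 43 reads in dogs 1 to 5, and in Post-ACTH 6, 4, 7, 1 and 4 reads. The normalized counts averaged 33.4 ± 6.39 and 4.25 ± 2.23 (SD, n = 5), without overlap, and the highest Post-ACTH value reached 25.4% of the lowest Pre-ACTH value. The log2 fold change of FMOD was -2.99 (SE 0.40), the largest of the 7 in size, but it rests on single reads in Post-ACTH. On log2 CPM with a prior count of 2, which draws low counts together, its within-dog ratios ran from -3.40 in dog 4 to -1.74 in dog 3.

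PCOLCE, which speeds the removal of the procollagen C-propeptide, had 416, 418, 252, 231 and 227 normalized counts in the Pre-ACTH samples of dogs 1 to 5 and 113, 62.2, 63.7, 42.9 and 44.4 in Post-ACTH. The highest Post-ACTH value was 49.8% of the lowest Pre-ACTH value, so the groups were far apart. The log2 fold change was -2.27 (SE 0.15), and the within-dog log2 ratios ran from -2.71 in dog 2 to -1.86 in dog 1. In both groups dogs 1, 2 and 3 lay above dogs 4 and 5.

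DDR2 had 1619, 881, 1189, 630.4 and 924 normalized counts in the Pre-ACTH samples of dogs 1 to 5 and 532, 692, 523, 500.4 and 698.5 in Post-ACTH. The groups overlapped, since the Pre-ACTH value of dog 4 lay below the Post-ACTH values of dogs 2 and 5. The log2 fold change was -0.77 (SE 0.20). Dogs 1 and 3 had ratios of -1.60 and -1.18, while dogs 2, 4 and 5 had ratios from -0.40 to -0.33, and without dog 1 the log2 fold change was -0.57.

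SPARC, a collagen-binding glycoprotein, changed least in size. It had 10930.0, 9699, 9338, 9695 and 9439 normalized counts in Pre-ACTH and 9143, 7884, 7373, 6063 and 7544 in Post-ACTH. The Post-ACTH value of dog 1 was only just below the lowest Pre-ACTH value, at 97.9% of it. The log2 fold change of SPARC was -0.38 (SE 0.09), and without dog 4, whose ratio was -0.68, it was -0.31.

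FN1 varied most between dogs in Pre-ACTH and in its ratios, though not in Post-ACTH. It had 7299.9, 5066, 3788, 2078 and 1981 normalized counts in the Pre-ACTH samples of dogs 1 to 5 and 1029, 657, 715, 972 and 1198 in Post-ACTH. Dogs 1 and 2 were highest in Pre-ACTH, and dog 5, lowest before, was highest in Post-ACTH. The within-dog log2 ratios were -2.82, -2.94 and -2.40 in dogs 1 to 3 but -1.09 and -0.72 in dogs 4 and 5, and the log2 fold change was -2.01 (SE 0.36).

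**Figure D2:**
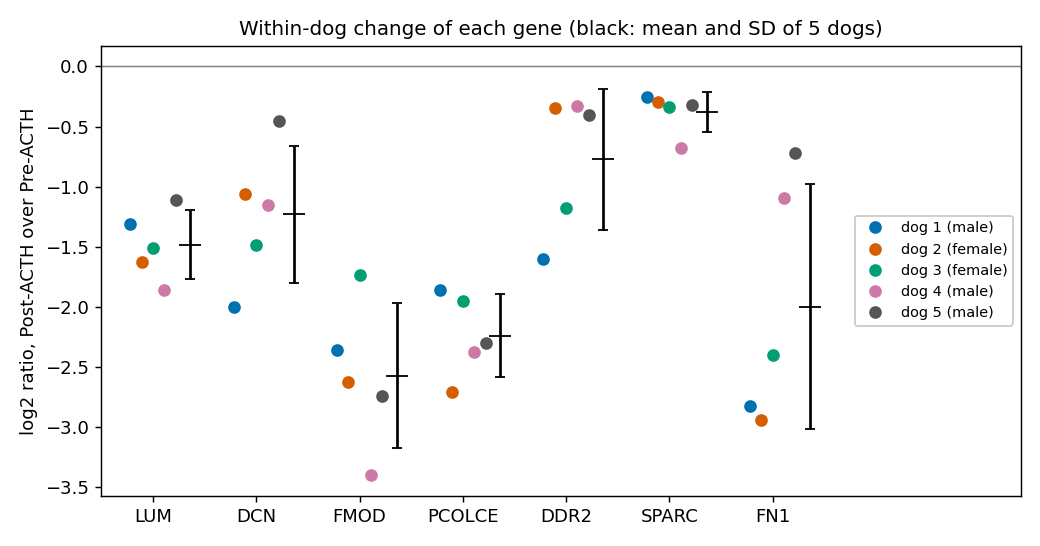
Log2 ratio of Post-ACTH over Pre-ACTH (vertical axis) of each gene in each dog (points), with the mean and SD of 5 dogs in black. All points lie below 0, those of SPARC between -0.68 and -0.26 and those of FN1 between -2.94 and -0.72.

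The genes did not keep a common order of change over the dogs. With the prior count of 2, FN1 had the lowest ratio of the 7 genes in dogs 1, 2 and 3, whereas FMOD had the lowest ratio in dogs 4 and 5. The order in dog 2 depended on the prior count, which draws the few reads of FMOD together. In normalized counts without it, FMOD fell further in dog 2 (33.9 to 3.83) than FN1 did (5066 to 657). SPARC had the ratio nearest to 0 in dogs 1, 2, 3 and 5, and DDR2 had it in dog 4. The median ratio of the 7 genes was -1.86 in dog 1, -1.63 in dog 2, -1.51 in dog 3, -1.15 in dog 4 and -0.72 in dog 5, while the median over all tested genes was between -0.011 and 0.0071 in each dog. Dog 1 was highest of the 5 dogs in 6 of the 7 genes in Pre-ACTH (all but PCOLCE) and in 5 of the 7 in Post-ACTH (all but DDR2 and FN1). Among 11821 genes with an average of at least 20 normalized counts, dog 1 was highest in 23.9% in Pre-ACTH and in 20.2% in Post-ACTH.

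The spread between dogs was narrower in Post-ACTH in 3 of the genes and wider in 4, and these differences were not tested. In DCN, DDR2 and FN1 the dogs differed more in Pre-ACTH than in Post-ACTH: the SD of log2 CPM was 0.66 and 0.23 for DCN, 0.51 and 0.23 for DDR2, and 0.81 and 0.36 for FN1. The highest DCN value was 3.26 times the lowest in Pre-ACTH and 1.53 times in Post-ACTH. In LUM, FMOD, PCOLCE and SPARC the SD was wider in Post-ACTH, from 0.46 to 0.53 for LUM, 0.27 to 0.61 for FMOD, 0.45 to 0.55 for PCOLCE and 0.09 to 0.21 for SPARC. The SDs of LUM and PCOLCE differed little between the groups. That of FMOD in Post-ACTH rests on 1 to 7 reads, where counting noise is large. Among the 11821 genes, to which FMOD with its lower average does not belong, the SD was narrower in Post-ACTH in 55.7%, with medians of 0.22 and 0.21. In DDR2 the order of the dogs by the size of the change was their order by Pre-ACTH value, dogs 1, 3, 5, 2 and 4. The ratio holds the Pre-ACTH value itself, and with 5 dogs no correlation is given.

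**Figure D3:**
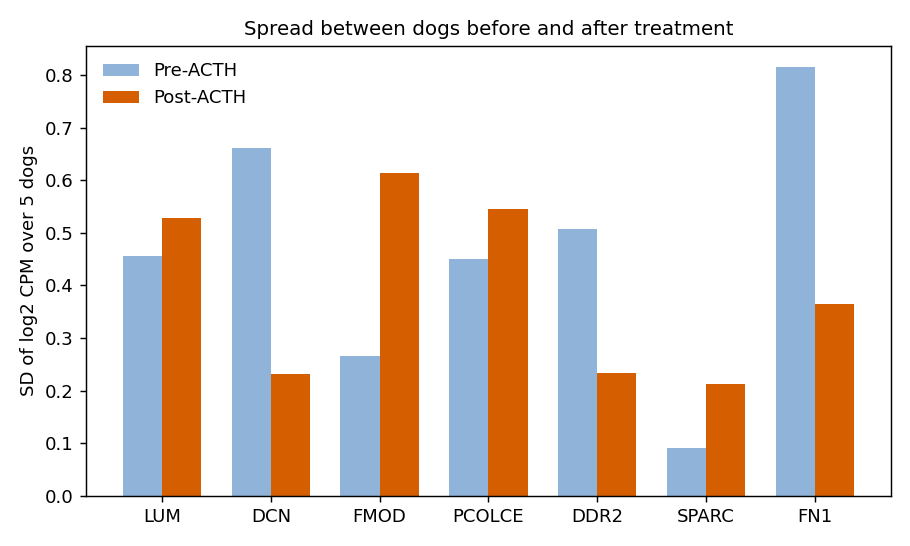
SD of log2 CPM over the 5 dogs (vertical axis, from 0) of each gene in Pre-ACTH (blue) and Post-ACTH (orange). The bars of DCN, DDR2 and FN1 are shorter in Post-ACTH, and those of LUM, FMOD, PCOLCE and SPARC are longer, that of FMOD resting on 1 to 7 reads.

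Differences between dogs and between sexes were not the measure by which the genes were chosen, and they were tested over all 13577 genes. The tests are still not independent of the choice, since a paired test on the same samples favours genes whose dogs change alike. For such genes an interaction with sex is less likely, and the residual in the test between dogs is smaller. For the level of the dogs across both time points, edgeR's quasi-likelihood test called 5 genes, 0.0368% of those tested, at FDR under 0.01, and 0 of the 7 genes. LUM came nearest with an adjusted p of 0.104, followed by PCOLCE with 0.178 (edgeR quasi-likelihood test), and these were the 2 genes of the 7 with an unadjusted p under 0.05, as had 1921 of the 13577 genes. With DESeq2's likelihood ratio test, which called 432 of the 13577 genes, LUM passed (adjusted p = 1.39e-05) and the other 6 did not, so the call for LUM rests on the tool. In LUM, dogs 1 and 3 were highest in Pre-ACTH and again in Post-ACTH. FN1, which differed widely between dogs in Pre-ACTH, had an adjusted p of 0.727 in edgeR's test, and its order of dogs was not kept in Post-ACTH.

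For the sex by treatment interaction, edgeR's quasi-likelihood test called 0 genes at FDR under 0.01 (0% of 13577, 435 at an unadjusted p under 0.05, and 4 with DESeq2), and 0 of the 7 genes had an unadjusted p under 0.05. FN1 had the lowest p of the 7, with log2 fold changes of -2.68 in the 2 females and -1.53 in the 3 males. The difference was -1.14 (SE 0.61), with an adjusted p of 1 in edgeR's test, as for the other 6 genes. It depended on single dogs: without dog 1 it was -1.77 (adjusted p = 0.0797, edgeR quasi-likelihood test) and without dog 5 it was -0.74, and in FN1 the unadjusted p fell below 0.05 without dog 1 and with DESeq2. FMOD differed the other way, with -2.53 in females and -3.33 in males (difference 0.79, SE 0.85), but the difference was 0.21 without dog 3, 0.39 without dog 4, 1.24 without dog 1 and 1.32 without dog 2. For LUM, DCN, PCOLCE, DDR2 and SPARC the differences lay between -0.17 and 0.10, with SEs from 0.20 to 0.44. With 2 females and 3 males, differences of this size could not be resolved.

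The proteins of these genes act on type I and type III collagen, so reads of each gene were also set against the summed reads of COL1A1, COL1A2 and COL3A1 in the same library. These collagen genes come from the same DEG list, and COL1A2 and COL3A1 fell, with log2 fold changes of -1.68 and -2.37 (SE 0.17 and 0.28, adjusted p = 0.00351 and 0.00475, edgeR quasi-likelihood test), while COL1A1 had -1.72 with an adjusted p of 0.0105. Neither COL1A2 nor COL3A1 was called without dog 2 or dog 3, and COL3A1 was not called without dog 4 or dog 5 either. Such a ratio does not depend on the scaling of libraries, and only its change within a dog is read, as a description. SPARC per collagen was higher in Post-ACTH in all 5 dogs, by 1.65 ± 0.48 on the log2 scale (SD, n = 5), with changes between 1.21 and 2.36. DDR2 was higher in all 5 dogs by 1.26 ± 0.80, DCN by 0.80 ± 0.69 and LUM by 0.55 ± 0.45, the last 2 with changes of only 0.06 and 0.04 in dog 3. FMOD per collagen was lower in all 5 dogs, with a mean change of -0.98 ± 0.91 and a lowest value of -2.44 in dog 4, which rests on 1 read. PCOLCE was lower in 4 of 5 dogs, with a mean of -0.24 ± 0.35. FN1 had changes of -0.65, -0.28 and -0.85 in dogs 1 to 3 and of 0.86 and 1.08 in dogs 4 and 5, so that its mean of 0.03 ± 0.89 hides opposite values. Between the neighbouring proteoglycan genes, LUM relative to DCN changed by 0.69 in dog 1 and by -0.71 to -0.02 in dogs 2 to 5.

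**Figure D4:**
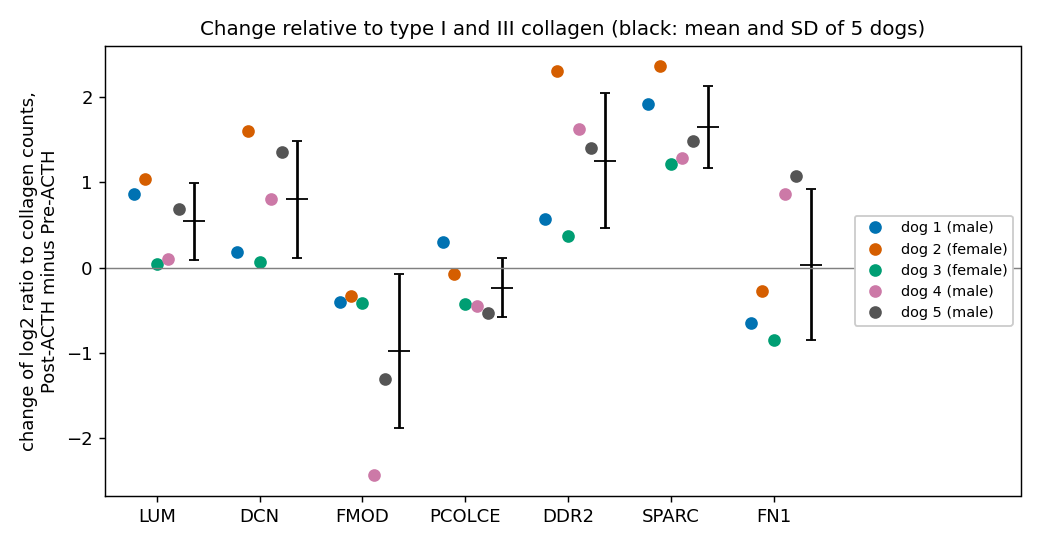
Change, Post-ACTH minus Pre-ACTH, of the log2 ratio of each gene's reads to the summed reads of COL1A1, COL1A2 and COL3A1 (vertical axis) in each dog (points), with mean and SD of 5 dogs in black. SPARC, DDR2, DCN and LUM lie above 0 in all 5 dogs, FMOD lies below 0 in all 5, and FN1 is split between dogs 1 to 3 and dogs 4 and 5.

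The other genes of fibril assembly could be followed only where the DEG list gives a symbol, and genes without a symbol are not analysed here. That the genes with a symbol change is given by the selection, but not in which direction, as the list holds lower and higher genes. The calls given below for these genes and for cell type markers are those of all 5 dogs: without dog 3 none of them passed FDR under 0.01, and without dog 2 only CKM did. DESeq2 called every gene of these lists that had a symbol, which the selection gives, as the study made the DEG list with DESeq2. Over all tested genes DESeq2 called 681 lower and 499 higher, so that lower genes were the more frequent. The other calls here are those of edgeR. Without dogs 1 and 5, 2 of the proteoglycans were called, and without dog 4, 3. Of 14 other small leucine-rich proteoglycans and relatives listed, 5 had a symbol and all 5 were lower, their median on the log2 scale being -1.52, and 3 were called. ECM2 fell by 2.05 (SE 0.18, adjusted p = 0.00241), OGN (osteoglycin) had -1.52 (SE 0.15, adjusted p = 0.00365) and PRELP -0.99 (SE 0.13, adjusted p = 0.00704). KERA (keratocan) and ASPN (asporin, a collagen-binding proteoglycan) had -1.98 and -0.80 but missed FDR under 0.01, with adjusted p-values of 0.0138 and 0.0282 in edgeR's quasi-likelihood test. In the RefSeq gene order of the UU_Cfam_GSD_1.0 assembly, EPYC, KERA, LUM and DCN follow each other, FMOD is followed by PRELP and OPTC, and ECM2, ASPN, OMD and OGN follow each other. In each of these gene clusters the members with a symbol were lower in all 5 dogs, and EPYC, OPTC and OMD have none here. KERA had few reads, with 63.0 ± 35.7 normalized counts in Pre-ACTH and 16.6 ± 13.4 in Post-ACTH (SD, n = 5).

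For procollagen processing and cross-linking, 4 of 30 listed genes had a symbol, 3 lower and 1 higher, and none was called at FDR under 0.01, with adjusted p-values from 0.0104 to 0.0573 and unadjusted p-values under 0.05 in all 4 (edgeR quasi-likelihood test), while LOXL2 passed without dog 4, and LOXL2 and BMP1 without dog 1. The cross-linking enzyme LOXL2 had a log2 fold change of -1.19 (SE 0.18), the hydroxylases P4HA2 and PLOD2 had -0.71 and -0.52, and the C-proteinase BMP1, whose activity PCOLCE enhances, had 1.06 (SE 0.29). BMP1 was higher in 4 of 5 dogs and lower in dog 1, with -0.46. Among other collagen receptors, 3 of 8 had a symbol, and all 3 were lower and missed FDR under 0.01 (unadjusted p under 0.05 in all 3), although ITGA2 passed without dog 1 and ITGA11 without dog 4: the integrin subunits ITGA11 and ITGA2 with -2.44 and -2.28, and the endocytic receptor MRC2 with -1.25 (adjusted p = 0.0104, 0.0137 and 0.0223, same test). Of 18 relatives of SPARC and matricellular genes, 4 had a symbol, 3 of them higher. SPARCL1, the nearest relative of SPARC, had -0.77 (SE 0.19, adjusted p = 0.0385), whereas SPOCK1 and POSTN (periostin) rose, with 4.11 and 2.65 (adjusted p = 0.00416 and 0.00806), from low levels of 13.1 ± 14.8 and 13.4 ± 14.0 normalized counts in Pre-ACTH (SD, n = 5), and without dog 5 neither was called, and without dog 1 POSTN was not. THBS1 had 2.22 (adjusted p = 0.0233). Of 15 fibrillar and fibril-associated collagens, 7 had a symbol, of which 4 were called lower (COL1A2, COL3A1, COL14A1 and COL6A3). Without dog 4 there were 5, with COL1A1 and COL6A1 in and COL3A1 out, and without dog 5 there was 1, COL1A2. COL14A1, a collagen of the fibril surface, fell by 2.19 (SE 0.18, adjusted p = 0.00213), while COL12A1, of the same group, had 1.94 (adjusted p = 0.0177).

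**Figure D5:**
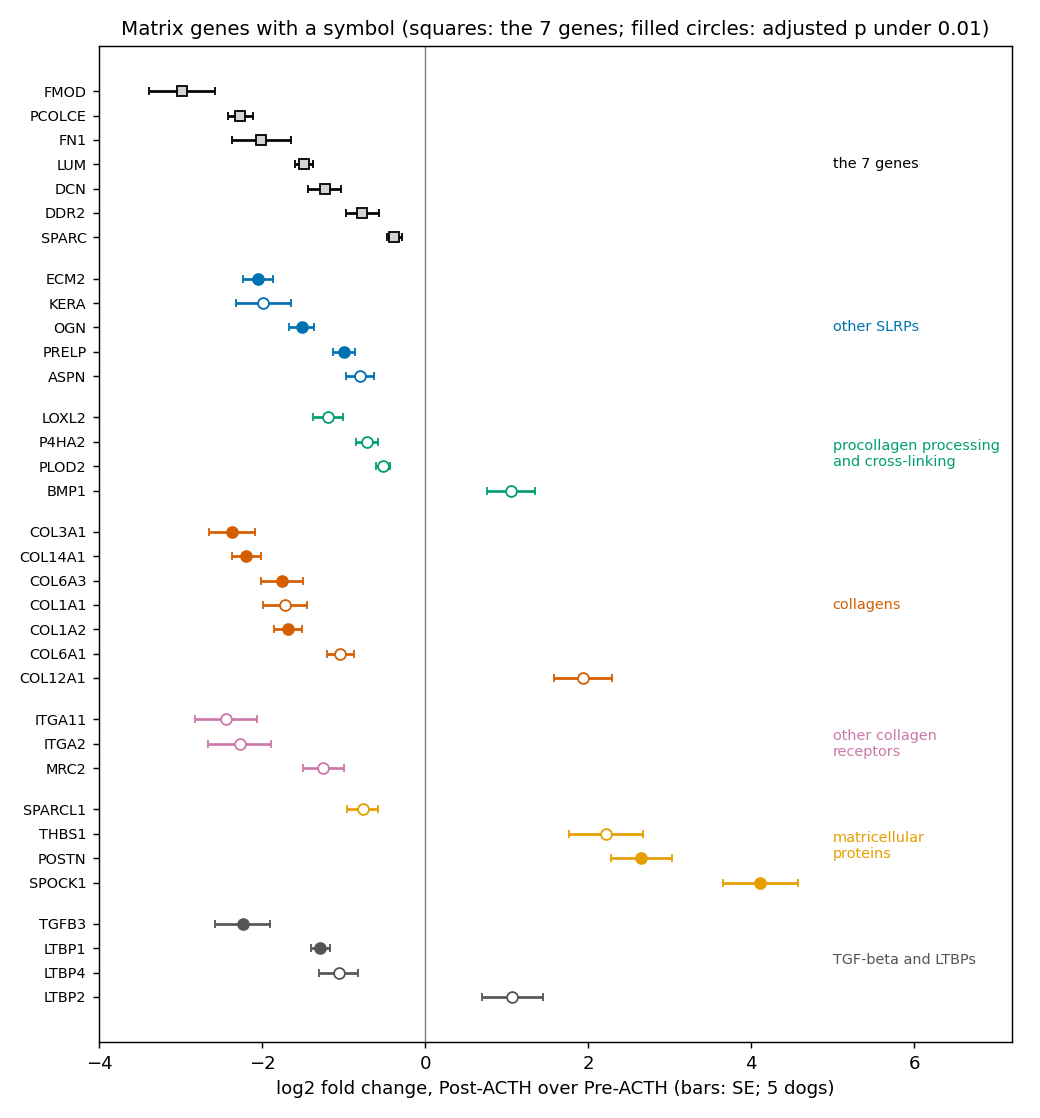
Log2 fold change, Post-ACTH over Pre-ACTH (horizontal axis, bars SE), of the 7 genes (grey squares) and of genes of 6 related lists with a symbol (circles, filled where the adjusted p is under 0.01). Collagens other than COL12A1 and the other small leucine-rich proteoglycans lie below 0, as the 7 genes do, while BMP1, COL12A1, SPOCK1, POSTN, THBS1 and LTBP2 lie above 0.

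The profile of the 7 genes over the dogs was compared with those of 856 other genes with a symbol and an average of at least 100 normalized counts, by the root mean square difference of the 5 within-dog log2 ratios. Nearest to the median profile of the 7 genes were LTBP1, which binds latent TGF-beta (0.204), then FGD2 (0.249), OGN (0.300), FAM13C (0.341) and COL1A2 (0.347). LTBP1 fell by 1.29 on the log2 scale (SE 0.12, adjusted p = 0.00267, edgeR quasi-likelihood test), with ratios from -1.56 in dog 1 to -0.87 in dog 5. OGN was the nearest gene to LUM (0.223), ECM2 to FN1 (0.477) and ALDH1A1 to PCOLCE (0.313), with PLCB2, COL6A3 and COL3A1 next. For DCN they were ARHGAP20 (0.247) and FGD2, for DDR2 ARFGEF3 (0.178) and FMNL1, for SPARC MOCS2 (0.0809) and TEX2, and for FMOD ADCYAP1R1 (0.274) and CAPN11. With prior counts of 0.5 and 5 the distance of ADCYAP1R1 from FMOD was 0.544 and 0.422, and HMCN2 and SLIT2 took the place of CAPN11. The genes compared come from the DEG list, and a small difference is easily met by a gene with a small change such as SPARC.

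Markers of cell types in the tissue could be followed as far as they had a symbol. Only genes named on the DEG list have one, so each marker shown was selected on this same contrast. The direction of the markers without a symbol is not shown, for any cell type. Of 8 markers of fibroblasts and adipocyte progenitors, 3 had a symbol, and all 3 were lower: PI16 fell by 3.30 on the log2 scale (SE 0.30, adjusted p = 0.00241), and THY1 and CD34 had -1.55 and -0.53 (adjusted p = 0.0128 and 0.0281, edgeR quasi-likelihood test). Their summed level was 1147 to 2486 normalized counts in Pre-ACTH and 446 to 972 in Post-ACTH, without overlap. Of 8 adipocyte markers LIPE (hormone-sensitive lipase) had a symbol, with 19596 to 25067 normalized counts in Pre-ACTH and 27688 to 33574 in Post-ACTH (log2 fold change 0.48, adjusted p = 0.0313, same test). For mural and smooth muscle cells 2 of 8 markers had a symbol, with summed levels of 753 to 1600 and 942 to 1371 normalized counts, and the groups overlapped. They went opposite ways, NOTCH3 with -0.67 and MYH11 with 0.89 on the log2 scale (adjusted p = 0.0597 and 0.0898, same test). For macrophages 2 of 8 had a symbol, with overlapping sums of 855 to 1889 and 511 to 1253 that are carried by CSF1R. CSF1R had -0.75 and C1QB 1.00, the latter higher in all 5 dogs (adjusted p = 0.0576 and 0.0330, same test). For mast cells 2 of 6 had a symbol, with sums of 16.5 to 42.2 normalized counts in Pre-ACTH and 0 to 3.22 in Post-ACTH, where CPA3 and MS4A2 are at or near 0. For skeletal muscle 2 of 6 had a symbol, with 49.8 to 261 and 648 to 1894, and CKM rose by 3.58 (adjusted p = 0.00199, same test). None of the listed markers of mesothelial cells, endothelial cells and lymphocytes is named on the DEG list, so their levels are not shown here. The part of these markers' differences in the values of the 7 genes was not tested.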

How the data were processed

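RNA-seq of VAT was analysed for 10 samples, paired by the animal IDs in the labels. The authors mapped trimmed reads to the CanFam3.1 build with STAR, used featureCounts for the reads of each Ensembl gene, and deposited these as raw counts. Tool versions, annotation release, strand setting and treatment of multi-mapping reads are not given in the sources used here, so reads of overlapping genes may be included. The labels name a stranded mRNA kit and 100 bp reads, and the methods of the study name another kit with ribosomal RNA depletion.

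From the counts, edgeR 4.0.16 in R 4.3.3 (TMM, glmQLFit and glmQLFTest, dog as a block) was run over the 13577 genes that reached 10 reads in any sample, with Benjamini-Hochberg adjustment over all of them and FDR under 0.01. SEs were taken as the fold change over the root of F. Log2 ratios are differences of log2 CPM (prior count 2). The tests were also run on simulated counts, which held no differences between dogs except those added to test for them. Their outcome is not given, and no result here rests on it. Samples of the same dog deviated together from their group means (correlations 0.077 to 0.41). No 2 libraries were alike within counting error (chi-square over degrees of freedom at least 17.45). Alternatives used DESeq2 1.42.0, limma-voom (limma 3.58.1), other scalings and filters, no pairing, and each dog left out.

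Symbols came from the ID and name columns of the study's DEG list (1079 of 1190 genes). The authors' own fold changes and p-values in that list were not used. Genes named are the 7 members, of each related list the called gene with the lowest p in each direction (up to 3 for proteoglycans, processing and receptors), the nearest profiles, and neighbouring proteoglycans. Further list genes were picked with their values in view. The members and lists were chosen with earlier results of these data known. Promoter motifs, planned, were not searched because no promoter sequences were used here.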

Additional observations from a re-analysis of the deposited data

Results flagged for a closer look

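In sets of 5 dogs, the highest or lowest value was marked where its distance to the next value, as a share of the whole range, passed Dixon's critical value of 0.71. Of 134 sets for the genes named above, 14 were marked, and 8 of the 14 belonged to dog 1. About 1 in 20 would be marked by chance in normally distributed values, but normalized counts entered without a log transformation. No excess over chance is read from the number marked. Sets of genes that vary together are not independent.

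For SPARC, the Pre-ACTH value of dog 1 (10930.0 against 9699 normalized counts in the next dog, share 0.773) and the within-dog log2 ratio of dog 4 (-0.68 against -0.34, share 0.801) stood apart. The Pre-ACTH sample of dog 1 stood apart upward also for PRELP (1304 against 814 normalized counts, 0.806), BMP1 (599.6 against 292, 0.843), COL14A1 (4411 against 1605, 0.763), POSTN (38.4 against 8.45, 0.919), LTBP1 (591 against 406, 0.711) and LTBP2 (473 against 170.1, 0.744). The log2 ratio of BMP1 in dog 1 was lowest (-0.46 against 1.15, 0.793). In the Pre-ACTH sample of dog 3, COL12A1 (10493 against 4851 normalized counts, 0.750) and THBS1 (7072 against 3059.6, 0.748) were highest. Dog 4 stood apart in Post-ACTH for ITGA11 (194.8 against 84.1 normalized counts, 0.725) and SPARCL1 (917 against 1388, 0.730), and in the log2 ratio of COL14A1 (-1.34 against -2.23, 0.746).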

How the results depend on the processing

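The log2 fold changes of the 7 genes kept their sign in all 13 alternatives and moved by less than the SD between dogs, as did their median, and the median over all genes stayed between -0.0282 and 0.0051 under every scaling. The counts at FDR under 0.01 depended on the setting. For Post-ACTH against Pre-ACTH, 268 genes and 3 of the 7 were called, against 1180 and 7 with DESeq2, 1509 and 7 at FDR under 0.05, 438 and 5 with no filter on low counts, and 1 to 318 and 0 to 2 without single dogs. As the DEG list of the study came from DESeq2, the 7 called with that tool are given by the selection. Without the replicate block 262 genes and 3 of the 7 were called, FN1 taking the place of LUM. For the difference between dogs, 5 genes were called, against 432 (and 1 of the 7) with DESeq2, 36 at FDR under 0.05 and 1 to 8 without single dogs. For the sex by treatment interaction DESeq2 called 4 genes. Signs of small interactions turned: without single dogs they ran from -0.47 to 0.27 for DCN, -0.56 to 0.21 for PCOLCE, -0.41 to 0.41 for DDR2 and -0.029 to 0.18 for SPARC, while FN1 (-1.77 to -0.74), FMOD (0.21 to 1.32) and LUM (-0.36 to -0.013) kept theirs, and for DDR2 the value was -0.012 with 10 reads required in 5 samples and -0.0014 with DESeq2. The cause was not tested. Prior counts of 0.5 and 5 kept 5 and 4 of the 5 profiles nearest to the median, and of the 2 nearest to each gene they exchanged 1 for FMOD (both) and 1 each for LUM and PCOLCE (prior count 5). Depth limits FMOD, with 1 to 7 reads in Post-ACTH.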

Other observations

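Decorin and fibromodulin are known to bind TGF-beta. Of 10 TGF-beta ligands, receptors and latent binding proteins, 4 had a symbol, 3 lower and 1 higher in Post-ACTH. TGFB3 fell by 2.24 on the log2 scale (SE 0.34, adjusted p = 0.00953, edgeR quasi-likelihood test), from 181 ± 66.5 to 40.4 ± 24.4 normalized counts (SD, n = 5), and without dogs 2, 3, 4 or 5 it was not called. LTBP4 and LTBP2 had -1.06 and 1.07 (adjusted p = 0.0310 and 0.107, same test). LTBP4 was lower in 4 of 5 dogs, and without dog 4 it had -1.35 and passed FDR under 0.01. Of 18 receptors and partners of fibronectin, 7 had a symbol, 5 lower and 2 higher, and none was called at FDR under 0.01 by edgeR's test, while 6 passed FDR under 0.05, all 7 had an unadjusted p under 0.05 and DESeq2 called all 7. Without dog 1, edgeR called 2 of them, ITGA4 and SDC1, and without dog 4 it called FNDC1. ITGAV, the integrin subunit alpha V, had -0.43 (SE 0.10, adjusted p = 0.0377), and the cross-linking enzyme TGM2 and the proteoglycan SDC1 (syndecan 1) had 0.74 and 1.88 (adjusted p = 0.0441 and 0.0433, same test). All these genes come from the DEG list, which the study made with DESeq2, so that their change and their DESeq2 calls are given by the selection.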
